A study of Mus musculus with 6 samples.

Results

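The set describes 10 mouse genes of iron handling and of the acute phase response, chosen by name and Ensembl identifier, of which 8 of the 8941 genes listed were analysed. The 6 iron genes were Fth1 (ENSMUSG00000024661), Ftl1 (ENSMUSG00000050708), Tfrc (ENSMUSG00000022797), Slc40a1 (ENSMUSG00000025993), Hamp (ENSMUSG00000050440) and Hmox1 (ENSMUSG00000005413), the 2 acute phase genes were Saa1 (ENSMUSG00000074115) and Saa4 (ENSMUSG00000040017), while Orm1 and Lcn2 were not analysed here. What was measured were disome footprints, the messenger RNA fragments that a pair of abutting ribosomes shields from nuclease, in livers of male C57BL/6JRj mice aged 11 to 12 weeks and kept in 12 h of light and 12 h of dark. The labels name no allele and no treatment of the mice beyond this inbred strain, all lysates contained cycloheximide, which halts ribosomes, and were digested with RNase I, and 3 groups differed in zeitgeber time (ZT, hours after lights on), namely ZT0, ZT2 and ZT12, with 2 libraries each. Each library pooled the lysates of 2 mice, so n counts pools of whole liver, in which fewer cells of a type and less RNA per cell cannot be told apart. The values were RPKM, reads per kilobase of coding sequence after scaling each library, and neither transcript amounts nor single ribosome footprints were analysed here.

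Iron is stored in liver cells inside ferritin, a shell of heavy and light chains, is taken up through the transferrin receptor and leaves through ferroportin. Iron regulatory proteins bind hairpins in these messenger RNAs when iron is scarce, which holds back ferritin translation and protects transferrin receptor messenger RNA. The liver hormone hepcidin, encoded by Hamp, makes ferroportin be degraded, and it is raised both by iron, through bone morphogenetic protein signals, and by inflammation, through STAT3. The acute phase response is the switch in secreted liver proteins after injury or infection, with serum amyloid A among its best known products.

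Depth, counted over the listed genes only, was 6346387 to 12322651 reads per library, and the libraries were not equally alike. ZT2 replicate 2 listed 250 genes at 0 and ZT2 replicate 1 listed 97, against 4 to 52 in the other libraries, and replicates differed by more than 2-fold for 1199 of 8355 tested genes at ZT2, 432 at ZT12 and 120 at ZT0. The 8 genes were above 0 in every library, and all 8 passed the filter of a mean of 1 RPKM. They held 0.301% to 0.496% of the reads of all listed genes in a library. Markers of hepatocytes, Kupffer cells, neutrophils and red cells were not tested, because no table used here paired the identifiers with symbols.

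The promoters of Hamp, Ftl1 and Saa1 are shown for these reasons. Hamp had the highest disome level of the set and belongs to both iron handling and the acute phase. Ftl1 had the largest log2 change between time points, and Saa1 the widest fold between its lowest and highest library. The sequences are RefSeq windows of GRCm38.p6 from 250 bases before the annotated start to 50 after it, given 5′ to 3′ on the gene's strand, and 6 of the 8 genes had such a window. They lie at chr7:30943980-30944279 for Hamp, chr7:45459837-45460136 for Ftl1 and chr7:46742931-46743230 for Saa1, all on the minus strand. On this strand the RefSeq gene of Saa1 begins at chr7:46743181, within its window and upstream of the start used. The stretch marked in the Saa1 window thus lies inside the annotated gene. Capitals mark matches on either strand to TTCNNNGAA (the core bound by STAT factors), GGCGCC (a core bound by SMADs in bone morphogenetic protein elements), TTGCNNAA (a C/EBP core), TATAAA (the TATA box), CCAAT (bound by NF-Y) and CACGTG (the E-box that clock factors bind).
Hamp: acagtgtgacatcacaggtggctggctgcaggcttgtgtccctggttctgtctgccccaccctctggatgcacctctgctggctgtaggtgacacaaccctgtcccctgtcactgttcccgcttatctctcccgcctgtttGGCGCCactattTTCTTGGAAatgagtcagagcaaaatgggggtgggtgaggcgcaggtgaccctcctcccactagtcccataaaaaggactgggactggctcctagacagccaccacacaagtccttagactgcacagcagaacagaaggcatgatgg
Ftl1: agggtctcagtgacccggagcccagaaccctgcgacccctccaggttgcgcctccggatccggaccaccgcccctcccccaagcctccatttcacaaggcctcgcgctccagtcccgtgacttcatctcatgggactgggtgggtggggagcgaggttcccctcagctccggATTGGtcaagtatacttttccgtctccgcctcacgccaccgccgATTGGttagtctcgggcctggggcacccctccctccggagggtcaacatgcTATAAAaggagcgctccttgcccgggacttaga
Saa1: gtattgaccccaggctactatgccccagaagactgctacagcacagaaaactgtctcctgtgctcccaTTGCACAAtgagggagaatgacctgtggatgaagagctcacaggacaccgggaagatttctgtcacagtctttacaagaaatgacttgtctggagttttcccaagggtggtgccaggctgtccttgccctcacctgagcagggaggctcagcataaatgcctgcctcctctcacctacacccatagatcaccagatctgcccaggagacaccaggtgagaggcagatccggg
The marked matches do not overlap each other. The Hamp window held TTCTTGGAA at position -97 and GGCGCC at position -109, counted from the annotated start as 0. Among all 32851 promoter windows, 8.3% held TTCNNNGAA and 11.9% held GGCGCC. Of the windows of the 8 genes, Hamp's was the only one with TTCNNNGAA, and one Tfrc window also had GGCGCC at position -89. The Saa1 window held TTGCACAA at position -182, a motif found in 10.8% of all windows and also in those of Saa4 and Fth1. The Ftl1 window held TATAAA at position 17, after the annotated start (13.6% of all windows), and 2 matches to the other strand of CCAAT (37.4%). One Fth1 window also matched TATAAA, on the other strand, at position -124. CCAAT was also matched in one Tfrc window at position -124 and one Fth1 window at position -7. No window of the 8 genes held CACGTG, which 7.15% of all windows did. These are matches of letters and say nothing of which factors were bound.

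Disome levels spanned a wide range across the set, with hepcidin far above the rest. Hamp had a mean of 11112 RPKM ± 3620.5 (SD, n = 6), ranked 12th of all listed genes and stood at 1488 times their median level. Ferritin heavy chain came next, Fth1 at 1448 RPKM ± 684 (SD, n = 6), and in every one of the 6 libraries Hamp lay above it. Saa1 averaged 558 RPKM ± 408, Saa4 250.4 RPKM ± 72 and Ftl1 181 RPKM ± 121 (SD, n = 6 each). The order of these 3 genes was not stable, since Saa1 exceeded Saa4 in 4 of 6 libraries and Saa4 exceeded Ftl1 in 4 of 6. Ferroportin, Slc40a1, averaged 60.1 RPKM ± 13.2 and haem oxygenase 1, Hmox1, 42.5 RPKM ± 10.4 (SD, n = 6 each), with Slc40a1 the higher in 5 of 6 libraries and their ranges overlapping. The transferrin receptor Tfrc was lowest, at 14.6 RPKM ± 3.34 (SD, n = 6), and its highest library lay below the lowest Hmox1 library. The lowest member still ranked 3253rd, above 63.6% of the listed genes.

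**Figure D1:**
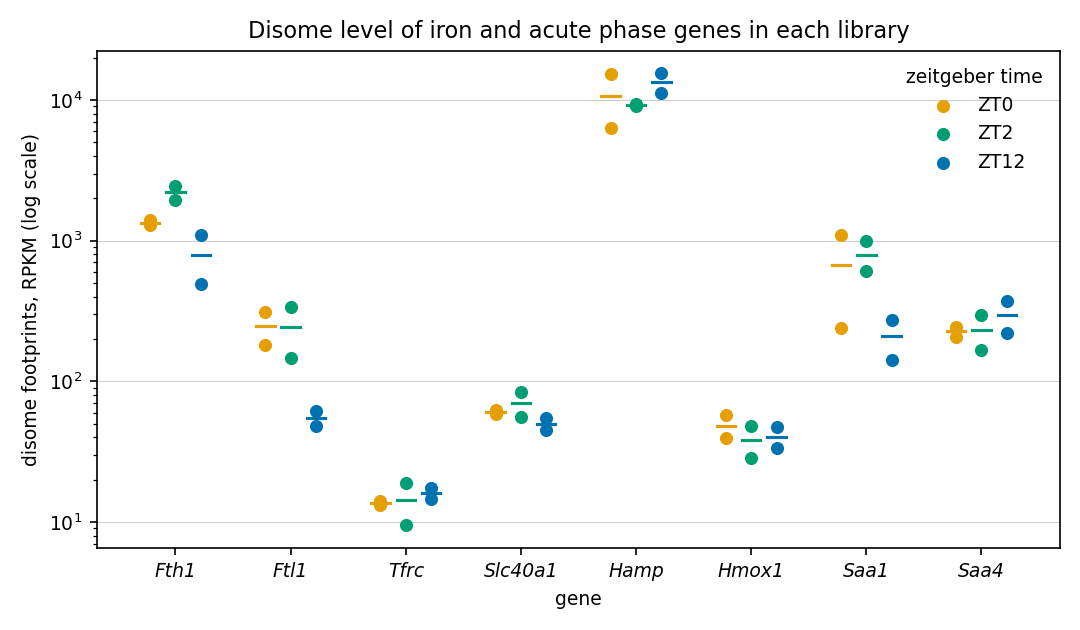
Disome level of the 8 genes in each library, in RPKM on a log axis, with 1 point per library, a bar at the mean of each time point, and time points from ZT0 to ZT12 left to right. Hamp lies at 6325 RPKM or more in every library and Tfrc at 19 RPKM or less, and both Ftl1 points at ZT12 lie below its other 4.

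Part of this order ran with coding length, over which reads are divided. Hamp has the shortest coding sequence of the set, 249 nucleotides, and Tfrc the longest, 2289 nucleotides. Spearman's rho between mean RPKM and coding length was -0.90 over the 8 genes and -0.47 over all 8941, as a description only, since all points share the same libraries. Against listed genes of 0.8 to 1.25 times their own coding length, all 8 members lay above the median. Hamp was 2nd of 202 such genes, at 271 times their median. Fth1 was 17th and Ftl1 107th, each of 955 genes in its own length class, at 75.6 and 9.43 times the class median. Saa1 was 34th of 492, Saa4 69th of 545 and Slc40a1 292nd of 2173. Tfrc, at 3.36 times the median of its length class, and Hmox1, at 3 times, were closest to the median.

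The comparison of time points asked whether disome levels of these genes differ between times of the light and dark cycle. No member passed limma's test at an adjusted p of 0.05 in any comparison (0 of 8), where 0.0239% of tested genes passed it between ZT2 and ZT0, 0.946% between ZT12 and ZT0, 2.06% between ZT12 and ZT2 and 1.26% in the F test over the 3 times. At an unadjusted p of 0.05, limma counted 0, 2, 3 and 2 of the 8 in that order, against 13.7%, 14.5%, 19.2% and 18.6% of all tested genes. Those counted were Ftl1 and Fth1 for ZT12 against ZT0 and in the F test, and these with Saa1 for ZT12 against ZT2. With voom on the recovered reads, 0, 1, 2 and 2 members passed an adjusted p of 0.05, where 0.108%, 3.39%, 4.26% and 4.19% of all tested genes did, so that calls were more frequent over all genes too. Libraries that did not overlap made 1 member higher (Fth1; 21.5% of all tested genes) and 0 lower (24.9%) at ZT2 than at ZT0, 1 higher (Tfrc; 26.6%) and 3 lower (Fth1, Ftl1 and Slc40a1; 27.8%) at ZT12 than at ZT0, and 1 higher (Hamp; 23.6%) and 4 lower (Fth1, Ftl1, Slc40a1 and Saa1; 22.3%) at ZT12 than at ZT2. Mean levels were lowest at ZT12 for 4 members, Fth1, Ftl1, Slc40a1 and Saa1, and highest at ZT12 for 3, Tfrc, Hamp and Saa4. At ZT12 the median log2 change of the 8 genes was -0.27 relative to ZT0 and -0.18 relative to ZT2, with -0.0072 and 0.028 over all tested genes. The pairwise comparisons share libraries, so their values stand side by side and are not independent.

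**Figure D2:**
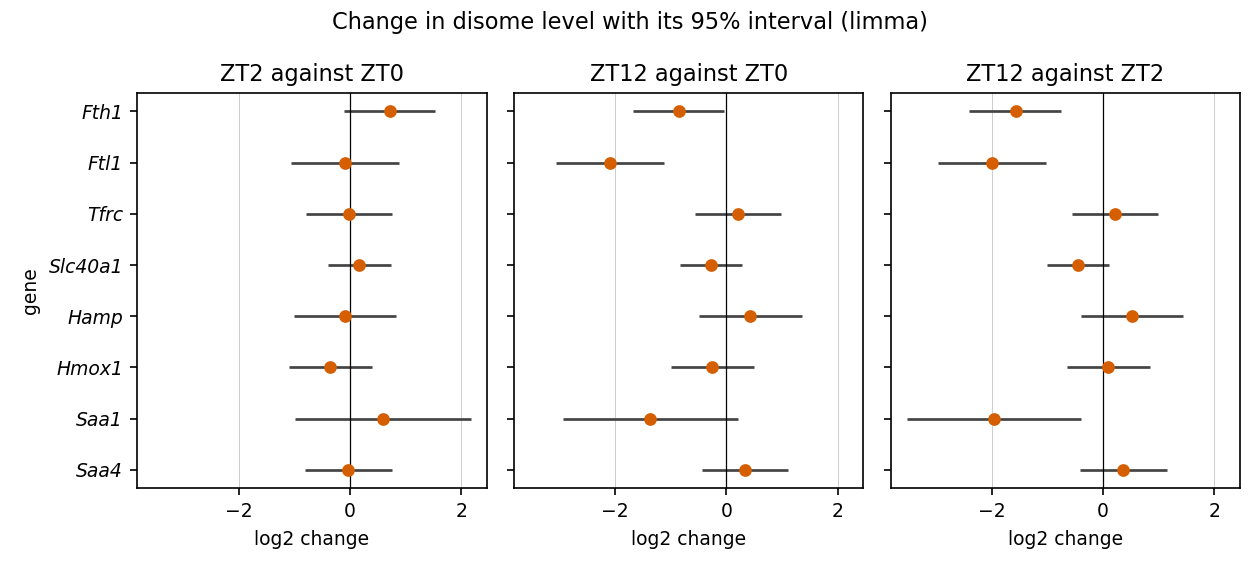
Log2 change of each gene between time points on the log2(RPKM + 1) scale, with its 95% interval from limma as a bar and a line at 0, in the 3 pairwise comparisons. The intervals of Ftl1 and Fth1 lie below 0 in both comparisons of ZT12 and that of Saa1 in the comparison with ZT2, while those of the other 5 genes cross 0 throughout.

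Of the set, the iron storage gene Ftl1 had the largest log2 change between time points. Ftl1, the ferritin light chain that helps the iron core form, had 309 and 182 RPKM in the ZT0 pools, 337 and 146 RPKM in the ZT2 pools, and 48.4 and 61.8 RPKM in the ZT12 pools. Both ZT12 libraries lay below all others, with no overlap, while the ZT0 and ZT2 libraries interleaved. Mean Ftl1 was 55.1 RPKM ± 9.49 at ZT12, against 245 RPKM ± 89.6 at ZT0 (SD, n = 2 each), which is 4.45-fold lower (log2 change -2.10 ± 0.41 SE, limma adjusted p = 0.0743). Against ZT2, where it averaged 242 RPKM ± 135 (SD, n = 2), the log2 change at ZT12 was -2.00 ± 0.41 SE (limma adjusted p = 0.0611). Only 27 of the 8355 tested genes had a more negative change than Ftl1 when ZT12 was set against ZT0, and 29 when it was set against ZT2. The F test gave Ftl1 a limma adjusted p of 0.0837.

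The Ftl1 result lay close to the threshold and moved across it under some alternatives. On the ZT12 and ZT0 libraries alone the limma adjusted p for ZT12 against ZT0 was 0.015, a setting where 295 of all genes were called instead of 79. Without either ZT2 library the log2 change was again -2.1. A lone ZT2 library adds nothing to the spread, so these fits nearly repeat that on the ZT12 and ZT0 libraries. With voom on the recovered reads, Ftl1 had an adjusted p of 0.00773 against ZT0 and 0.00918 against ZT2. Over all alternatives, its adjusted p ran between 0.00773 and 0.405 against ZT0 and between 0.00918 and 0.285 against ZT2, and all of these log2 changes were negative. The Ftl1 value rested on 348 and 419 reads at ZT12, 1142 and 619 reads at ZT2 and 1194 and 770 reads at ZT0. Ferritin genes have near-identical copies elsewhere in the genome, and how the authors treated reads mapping to several places is not given in the sources used here.

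Fth1, the ferritin heavy chain whose ferroxidase site oxidises iron for storage, had 1396 and 1284 RPKM in the ZT0 pools, 2456 and 1959.6 RPKM in the ZT2 pools, and 492 and 1102 RPKM in the ZT12 pools. The 3 time points did not overlap, with the ZT2 libraries highest and the ZT12 libraries lowest and also farthest apart. Mean Fth1 was 797 RPKM ± 432 at ZT12, against 2208 RPKM ± 351 at ZT2 (SD, n = 2 each), which is 2.77-fold lower (log2 change -1.57 ± 0.35 SE, limma adjusted p = 0.078). Against ZT0, at 1340.1 RPKM ± 79.1 (SD, n = 2), the log2 change at ZT12 was -0.86 ± 0.35 SE (limma adjusted p = 0.322). Without each library in turn, the Fth1 change at ZT12 ran between -1.44 and -0.28 relative to ZT0 and between -2.15 and -0.99 relative to ZT2, with the smaller sizes without ZT12 replicate 1 and the larger without ZT12 replicate 2. For ZT2 against ZT0 the log2 change was 0.71 ± 0.35 SE (limma adjusted p = 0.412). For ZT12 against ZT2, the adjusted p of Fth1 was 0.0433 with quantile normalization and 0.00911 with voom, and it reached up to 0.174 over all alternatives. Replicates of Fth1 at ZT12 differed 2.24-fold, the 8th widest gap among the 1007 genes with a mean of 100 RPKM or more.

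The ratio of heavy to light chain disomes spanned 3.94-fold over the libraries. Per kilobase of coding sequence, Fth1 stood 4.52 and 7.06 times above Ftl1 at ZT0, 7.29 and 13.4 times at ZT2, and 10.2 and 17.8 times at ZT12. Both ZT12 libraries and both ZT2 libraries exceeded both ZT0 libraries, while ZT12 and ZT2 overlapped. The mean ratio was 14 at ZT12 and 5.79 at ZT0. An exact permutation test of 2 libraries against 2 cannot give a two-sided p below 0.333, and the ratio is given as a description. The 2 chains have nearly the same coding length, 546 and 549 nucleotides, and their near-identical copies limit this ratio as they do the levels.

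**Figure D3:**
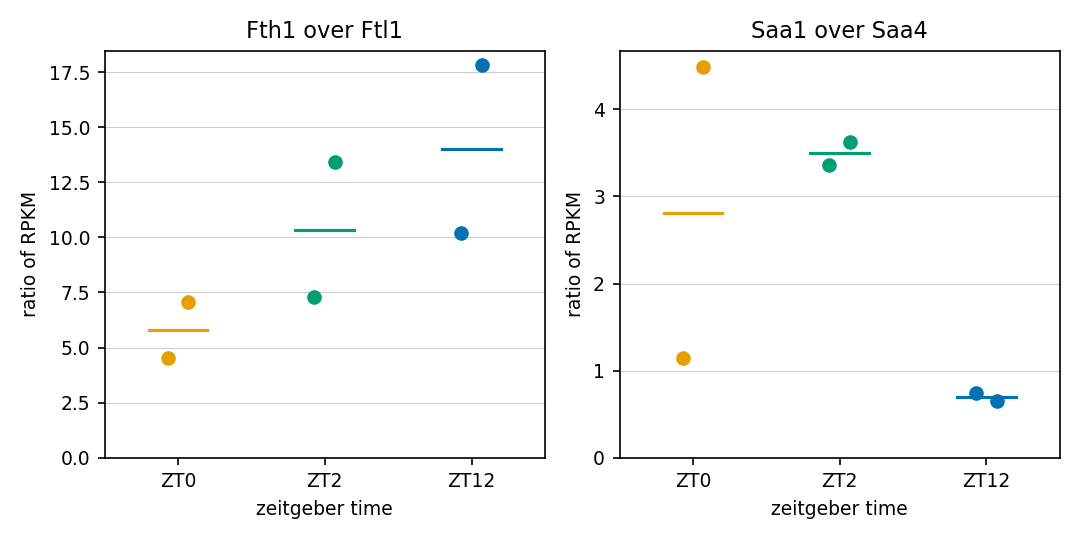
Ratio of RPKM of Fth1 over Ftl1 and of Saa1 over Saa4 in each library, with 1 point per library and a bar at the mean of each time point, time running left to right. Fth1 over Ftl1 runs between 4.52 and 17.8 with the ZT0 libraries lowest, and Saa1 over Saa4 lies at 0.744 and 0.65 in the ZT12 libraries and above 1 in the other 4.

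The genes of iron transport and haem breakdown had the narrowest spans of the set, 1.86-fold to 2.01-fold between the lowest and the highest library. Slc40a1, the iron exporter ferroportin, had 62.8 and 58.3 RPKM in the ZT0 pools, 84.3 and 55.4 RPKM in the ZT2 pools, and 45.2 and 54.8 RPKM in the ZT12 pools. Its ZT12 libraries lay just below the rest, by less than the gap between the ZT2 replicates. The log2 change was -0.28 for ZT12 against ZT0, with a 95% interval of -0.84 to 0.29 and a limma adjusted p of 0.652. It was -0.45 for ZT12 against ZT2, with an interval of -1.01 to 0.11 and a limma adjusted p of 0.354.

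Tfrc, the receptor that brings in transferrin-bound iron, had 13.3 and 14 RPKM in the ZT0 pools, 9.48 and 19 RPKM in the ZT2 pools, and 17.4 and 14.5 RPKM in the ZT12 pools. The ZT2 replicates bracketed all other libraries and differed 2.01-fold. Its log2 change for ZT12 against ZT0 was 0.21 (95% interval -0.57 to 0.98, limma adjusted p 0.829). Hmox1, the enzyme that opens haem and frees its iron, had 39.8 and 57.2 RPKM in the ZT0 pools, 48.2 and 28.7 RPKM in the ZT2 pools, and 47 and 33.8 RPKM in the ZT12 pools. Its libraries overlapped in every comparison, and its log2 change for ZT12 against ZT0 was -0.25 (95% interval -0.99 to 0.49, limma adjusted p 0.768). With 2 libraries a time point, these intervals do not show that the levels were alike.

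Hepcidin, which controls ferroportin from the blood side, had its widest replicate gap at ZT0. Hamp had 15182 and 6325 RPKM in the ZT0 pools, 9427 and 9046 RPKM in the ZT2 pools, and 11233 and 15463 RPKM in the ZT12 pools. The lowest library was a ZT0 pool and the highest a ZT12 pool, the ZT2 replicates nearly coincided, and the ZT12 libraries lay above the ZT2 libraries without overlap. Hamp averaged 13348 RPKM ± 2992 at ZT12, against 9236 RPKM ± 269 at ZT2 (SD, n = 2 each), and the log2 change of 0.51 ± 0.39 SE had a limma adjusted p of 0.521. Against ZT0, at 10753 RPKM ± 6263 (SD, n = 2), the log2 change at ZT12 was 0.43 (95% interval -0.49 to 1.35, limma adjusted p 0.675). This difference turned to -0.20 without ZT0 replicate 2 and was 1.06 without ZT0 replicate 1.

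The gap between the ZT0 replicates of Hamp was 2.4-fold, the 4th widest among the 1007 genes with a mean of 100 RPKM or more. Hamp took 0.37% of the reads of listed genes in ZT0 replicate 1 (95% exact Clopper-Pearson interval 0.366 to 0.375). In ZT0 replicate 2 it took 0.155% (0.153 to 0.158), and the intervals did not overlap. Intervals of this kind cover counting error only and take reads as independent, which was not tested. Hamp has a close relative, Hamp2, and reads may have been split between them. Its reads, 12140 to 47538 a library, made up 51.5% to 80.6% of all reads of the 8 genes.

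Saa1, a major acute phase protein carried on high density lipoprotein, had the widest fold of the set between its lowest and highest library. Saa1 had 239 and 1096 RPKM in the ZT0 pools, 988 and 605 RPKM in the ZT2 pools, and 275 and 142 RPKM in the ZT12 pools. Its ZT12 libraries lay below both ZT2 libraries, whereas the ZT0 libraries spanned almost the whole range, with replicate 1 among the ZT12 values and replicate 2 the highest of all. Saa1 averaged 209 RPKM ± 93.9 at ZT12, against 797 RPKM ± 271 at ZT2 (SD, n = 2 each), which is 3.82-fold lower (log2 change -1.96 ± 0.67 SE, limma adjusted p = 0.187). Against ZT0, at 668 RPKM ± 606 (SD, n = 2), the log2 change at ZT12 was -1.37 ± 0.67 SE (limma adjusted p = 0.403), and it was -0.27 without ZT0 replicate 2 and -2.46 without ZT0 replicate 1. The 4.58-fold gap between the ZT0 replicates was the 7th widest of all 8355 tested genes, where the median gap on the log2 scale was 0.191 and that of Saa1 was 2.19.

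Saa4, the constitutive serum amyloid A, had its highest value in a ZT12 pool. Saa4 had 208 and 245 RPKM in the ZT0 pools, 294 and 167 RPKM in the ZT2 pools, and 369.8 and 219 RPKM in the ZT12 pools. All 3 time points overlapped. Its log2 change for ZT12 against ZT0 was 0.33 (95% interval -0.44 to 1.11, limma adjusted p 0.703), and for ZT12 against ZT2 it was 0.36 (-0.42 to 1.14, limma adjusted p 0.601). Saa1 and Saa4 are next to each other on chromosome 7, with 0 protein-coding genes between them in the RefSeq annotation. The ratio of Saa1 to Saa4 was 1.15 and 4.48 in the ZT0 pools, 3.36 and 3.63 in the ZT2 pools, and 0.744 and 0.65 in the ZT12 pools. Saa1 was below Saa4 in both ZT12 libraries and above it in the other 4. Saa1 has a near-identical relative in Saa2, so reads may have been split or merged between them by the authors' counting.

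Among the libraries, Hamp and Saa1 ran in nearly opposite order. The library with the most Saa1, ZT0 replicate 2, had the least Hamp, and the library with the least Saa1, ZT12 replicate 2, had the most Hamp. Hamp exceeded Saa1 by 63.5-fold and 5.77-fold at ZT0, 9.54-fold and 14.9-fold at ZT2, and 40.8-fold and 109-fold at ZT12. Pearson's r of log2(RPKM + 1) over the 6 libraries was -0.91, the lowest of the 28 pairs of members. Within ZT0, replicate 1 had the higher Hamp and the lower Saa1, and within ZT12 replicate 2 did. Within ZT2 the order was not opposite, since replicate 1 was the higher in both genes. The 6 points share their scaling and 3 time points, and the pair was picked from all 28 after its value was seen, so it is a description.

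**Figure D4:**
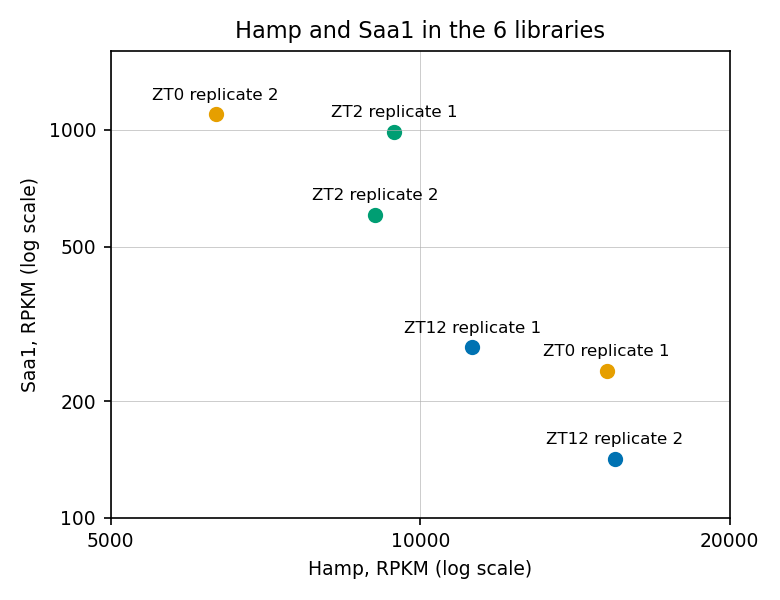
Level of Saa1 (RPKM, log axis) against that of Hamp (RPKM, log axis), with 1 point per library named by time point and replicate. ZT0 replicate 2 stands at 6325 RPKM of Hamp and 1096 RPKM of Saa1, and ZT12 replicate 2 at 15463 RPKM of Hamp and 142 RPKM of Saa1.

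By the same measure, Ftl1 and Slc40a1 were each other's closest match in the set (r = 0.84, n = 6 libraries), and Fth1 was closest to Slc40a1 (r = 0.83), with Fth1 and Ftl1 at 0.80. Hmox1 and Saa4 were closest to each other (r = 0.71). Hamp and Tfrc had no close positive match, since the highest r of either was 0.01, and Saa1 was closest to Ftl1 (r = 0.57). The most negative values were -0.91 for Hamp with Saa1 and -0.89 for Tfrc with Slc40a1. Of the 28 pairs, 12 had r above 0. These values describe 6 libraries, with no test.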

How the data were processed

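The authors deposited 1 table of RPKM per library without header or symbols. The submitters' processing notes name, without roles, edgeR, StringTie, STAR, Bowtie2 2.3.0, cutadapt and CASAVA 1.82, and the builds GRCm38.p2 and mm10. The annotation release, gene filter and handling of multiply mapping reads were not given in the sources used here. Per the labels' protocols, lysates received 650 U of RNase I over 45 min.

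Members are all named, and they and every list were chosen with earlier results of these data known. The set's own list paired identifiers with symbols, and the RefSeq gene table carried Ensembl identifiers for 0 of 49997 genes, so the lists of other iron, acute phase and cell type genes were not tested.

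Whole reads were recovered from the RPKM steps for 100% of genes (relative tolerance 5e-13), and 95.16% of lengths were multiples of 3. The lengths were taken as coding lengths. Their scale was set by 1 gene whose length was tried only at multiples of 3, so this share alone does not show it. Reads served for depth, shares and 1 alternative. The test was limma 3.58.1 in R 4.3.3 with a variance trend on log2(RPKM + 1), applied to the 8355 genes whose mean reached 1 RPKM, 1 mean per time point over 6 libraries (3 residual degrees of freedom), and Benjamini-Hochberg adjustment over all genes tested. This scale understates changes of low genes. Folds are ratios of mean RPKM. Log2 changes, intervals and p-values come from this fit, and the closing section gives the alternatives. The script was tested on simulated data. P-values set the difference between time points against the spread between pools, moderated by its trend over all tested genes.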

Additional observations from a re-analysis of the deposited data

How the results depend on the processing

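No call was lost and none changed direction, since no member passed the test as reported. Of 568 values for single members under other settings, 529 kept direction and side of the threshold, 17 passed it and 22 changed sign, all 22 in changes that were not significant. The number of members called was 1 instead of 0 for ZT12 against ZT2 with a filter at 5 RPKM (Ftl1) and with quantile normalization (Fth1), and 1 for ZT12 against ZT0 on the 4 libraries compared (Ftl1). With voom it was 1 for ZT12 against ZT0, 2 for ZT12 against ZT2 and 2 in the F test, and at an adjusted p of 0.1 it was 1, 2 and 1. Pseudocounts of 0.1 and 5, no filter, scaling to the same total, no variance trend, the robust prior and the replicate block left all 4 counts at 0. With 1 library left out at a time, 0 to 0 members were called for ZT2 against ZT0 and 0 to 1 in the other comparisons and the F test, the lone library of a group being assumed to vary as other groups do. The members called were then Ftl1 alone, without either ZT2 library. Under equal totals per library, the median over all genes was -0.11 on the log2 scale between ZT2 and ZT0 and 0.17 between ZT12 and ZT2. Same-numbered libraries deviated from their group means with correlations of -0.0756, -0.0186 and 0.0184, and pools of 1 number share only that number. With the replicate block 0 members and 51 of all genes were called for ZT12 against ZT0, instead of 79, and 113 for ZT12 against ZT2, instead of 172. Over all genes, the calls for ZT12 against ZT0, for ZT12 against ZT2 and in the F test were 32, 80 and 34 without the variance trend, 283, 356 and 350 with voom, and 179, 423 and 305 at an adjusted p of 0.1, instead of 79, 172 and 105. For ZT12 against ZT2, 203 of 5342 genes were called with the filter at 5 RPKM and 189 of 8355 with quantile normalization, and for ZT12 against ZT0 the filter gave 124. On the 4 libraries compared the calls for ZT12 against ZT0 and against ZT2 were 295 and 39, and without each library in turn 3 to 300 and 5 to 609, with 5 to 630 in the F test. For ZT2 against ZT0, where 2 genes were called, there were 6 with a pseudocount of 0.1, 9 with voom, 8 at an adjusted p of 0.1, 1 without the trend, 256 without ZT2 replicate 1 and 7 without ZT2 replicate 2. For all of these the cause was not tested. For ZT2 against ZT0 the log2 change of Tfrc was 0.0024 with a pseudocount of 5, 0.013 with quantile normalization and 0.0083 with voom, and that of Saa4 was 0.057 with quantile normalization. Without each library in turn, changes that turned sign ran for ZT2 against ZT0 from -0.69 to 0.51 in Ftl1, -0.48 to 0.45 in Tfrc, -0.13 to 0.47 in Slc40a1, -0.72 to 0.55 in Hamp, -0.71 to 0.015 in Hmox1, -0.50 to 1.69 in Saa1 and -0.43 to 0.38 in Saa4. For ZT12 against ZT0 they ran from -0.20 to 1.06 in Hamp, -0.51 to 0.0040 in Hmox1 and -0.043 to 0.71 in Saa4. For ZT12 against ZT2 they ran from -0.25 to 0.69 in Tfrc, -0.27 to 0.46 in Hmox1 and -0.047 to 0.77 in Saa4. The median rank of the 8 members by mean RPKM was 565, and 535 to 625 without each library. Each member had 134 reads or more in each library.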

Other observations

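Among the 1007 genes with a mean of 100 RPKM or more, Ftl1 had the 8th most negative change at ZT12 relative to either other time. Saa1 was 18th and 9th from the most negative and Fth1 64th and 14th, while Hamp was 114th and 127th from the most positive. These ranks describe the libraries and carry no test.

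The ZT0 libraries were the closest replicates of the series over all genes, with r = 0.989 across 8355 genes, yet they held the gaps of Saa1 and Hamp, the widest of the set. Among the 1007 better covered genes the gap at ZT0 ranked 2nd for Saa1, 4th for Hamp and 14th for Ftl1. In ZT0 replicate 1 Hamp and Ftl1 were the higher and Saa1 the lower.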
